A study of Mus musculus with 39 samples.

Results

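The genes of oxidative phosphorylation were read from the gene count table by symbol: the subunits of respiratory complexes I to V encoded in the nucleus, the complex I assembly factors that share the Nduf name, and the messenger RNA genes of mitochondrial DNA. A member had to match the symbol pattern, carry no pseudogene (-ps), Gm or Rik name, and hold at least 20 counts summed over all 39 libraries. Of 119 matching symbols, 9 were left out by name and 4 for too few counts, which left 106 of the 53379 genes of the table. Just outside the count minimum lay Ndufs6b with 18 counts, and just inside it lay Ndufb4c with 20, Cox6c2 with 26 and Ndufa11b with 38. The nuclear members numbered 93: 38 for complex I, 4 for complex II, 8 for complex III, 18 for complex IV, 17 for complex V and 8 assembly factors. Every Atp5 symbol was counted under complex V by name, the coupling factor gene Atp5s included. The mitochondrially encoded members numbered 13: 7 for complex I, 1 for complex III, 3 for complex IV and 2 for complex V.

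The study sorted brain macrophages by FACS from C57Bl/6 mouse embryos of time-mated females, counting the day of the plug as E0.5, and sequenced their RNA after SMART-seq2 amplification. Border-associated macrophages (BAM), which occupy the meninges, the choroid plexus and the perivascular spaces, were compared with microglia, the macrophages of the parenchyma. BAM gave 4, 3, 3, 3, 3 and 4 libraries at E10.5, E11.5, E12.5, E14.5, E16.5 and E18.5, and microglia gave 4, 3, 3, 2, 3 and 4. The labels name no treatment, no mutant allele and no sort gate, and do not say whether libraries came from separate litters or from pooled embryos, so p-values measure the spread between these libraries.

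The median library held 22.4 M counts, in a range of 10.7 M to 47.2 M. The library numbers fall into 2 series, called here R8 (23 libraries, 10.7 M to 24.3 M counts) and R10 (16 libraries, 20.6 M to 47.2 M counts). R10 held all libraries of E10.5 and E11.5 and replicate 1 of each population at E18.5. What the series stand for is not given in the sources used here. The labels fitted the markers at E18.5, where a summed set of 8 BAM markers reached 29230 to 34410 CPM (counts-per-million, scaled to the library total) in BAM and 2002 to 2242 in microglia. At E10.5 the populations were less separate: the BAM marker Mrc1 had 3178 to 4412 CPM in BAM and 668 to 1519 in microglia.

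The respiratory chain passes electrons from NADH (complex I) and succinate (complex II) through complex III to oxygen at complex IV, and ATP synthase (complex V) uses the resulting proton gradient to make ATP. All subunits of complex II are encoded in the nucleus, whereas complexes I, III, IV and V combine nuclear subunits with a few made inside mitochondria from mitochondrial DNA. The mitochondrial genes are transcribed as long joint precursors and then cut, while each nuclear gene has its own promoter.

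Among nuclear members, the ATP synthase subunits that form the catalytic head had the highest levels. Scaled to exon length (CPM per kilobase, mean over 39 libraries), the beta subunit Atp5b (chr10:128083273-128090391, plus strand, GRCm38 as in the count table) stood at 345 and the alpha subunit Atp5a1 at 319. The highest level in the complex was 184 CPM per kilobase for the membrane anchor Sdhd in complex II, 172 for Cox7a2l in complex IV and 130 for the core protein Uqcrc1 in complex III. In complex I, the iron-sulphur core subunit Ndufs8 stood at 73.7. Assembly factors were lower, from 1.25 CPM per kilobase for Ndufaf2 to 16.9 for Ndufaf7. Some small subunits had low levels, among them Uqcrq at 8.54 and Atp5l at 0.934 CPM per kilobase. The length is that of the count table, at 6443 bases for Atp5l, and does not say which transcripts the cells used. Ranks per kilobase depend on it. The muscle forms Cox6a2 and Cox7a1 were at 0 counts in 8 and 5 of 39 libraries, and the testis form Cox6b2 in 2.

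The 13 mitochondrial members covered a wide range of levels. The 4 genes mt-Co1, mt-Cytb, mt-Nd1 and mt-Nd5 held 93.7% of the summed mitochondrial counts, at 5033, 4302, 3853 and 855 CPM per kilobase. By contrast mt-Atp6 stood at 19.7, mt-Co3 at 12.47, mt-Co2 at 4.84, mt-Nd4l at 4.14 and mt-Nd3 at 2.83 CPM per kilobase. In each of these 5 genes, 97.6% to 99.9% of all 100-base windows also occur, letter for letter, in a nuclear copy annotated on chromosome 1. The share of windows that occur in any other annotated gene was 60.8% in mt-Nd4, 30.8% in mt-Co1, 3.19% in mt-Nd2 and 0 in mt-Cytb, mt-Nd1, mt-Nd5, mt-Nd6 and mt-Atp8, the last of which overlaps mt-Atp6. Only annotated genes were searched, so a copy outside them would not be seen. The low level of mt-Atp8 is therefore uncertain too. The sources do not say how reads that match several places were counted, so the levels of the 5 largely shared genes are uncertain and are not read here as transcript levels. The same holds for mt-Nd4, with 60.8% of its windows shared. Among nuclear members, 58 of 93 shared no such window with another gene, and none shared 50% or more with a pseudogene. Atp5o shared 27.9% of its windows with the antisense gene Gm15976, Ndufaf2 62.4% with the long noncoding gene B230220B15Rik and Ndufb6 24.0% with Smim27. No strand setting is given for the counting, so reads of such overlapping partners cannot be told apart.

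A pair of examples shows how close the copies are. Each is a 120-base stretch on the coding strand in GRCm38, and capitals mark the bases at which the members of a pair differ. The stretch of mt-Co2 (chrM:7313-7432, plus strand) and that of Gm28661 (chr1:24615146-24615265, minus strand) differ at 0 bases, and those of mt-Co1 (chrM:5828-5947, plus strand) and Gm13340 (chr2:22589028-22589147, minus strand) at 5.
mt-Co2: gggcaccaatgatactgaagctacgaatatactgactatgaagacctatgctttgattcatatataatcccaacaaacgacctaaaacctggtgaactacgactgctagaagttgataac
Gm28661: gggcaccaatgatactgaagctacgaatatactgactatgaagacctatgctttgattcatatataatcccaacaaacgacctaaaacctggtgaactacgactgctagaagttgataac
mt-Co1: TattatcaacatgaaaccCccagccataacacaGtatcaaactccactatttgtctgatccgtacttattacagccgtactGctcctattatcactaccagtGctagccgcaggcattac
Gm13340: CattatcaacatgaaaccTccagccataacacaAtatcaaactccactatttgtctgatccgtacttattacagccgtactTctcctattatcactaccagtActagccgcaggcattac

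**Figure D1:**
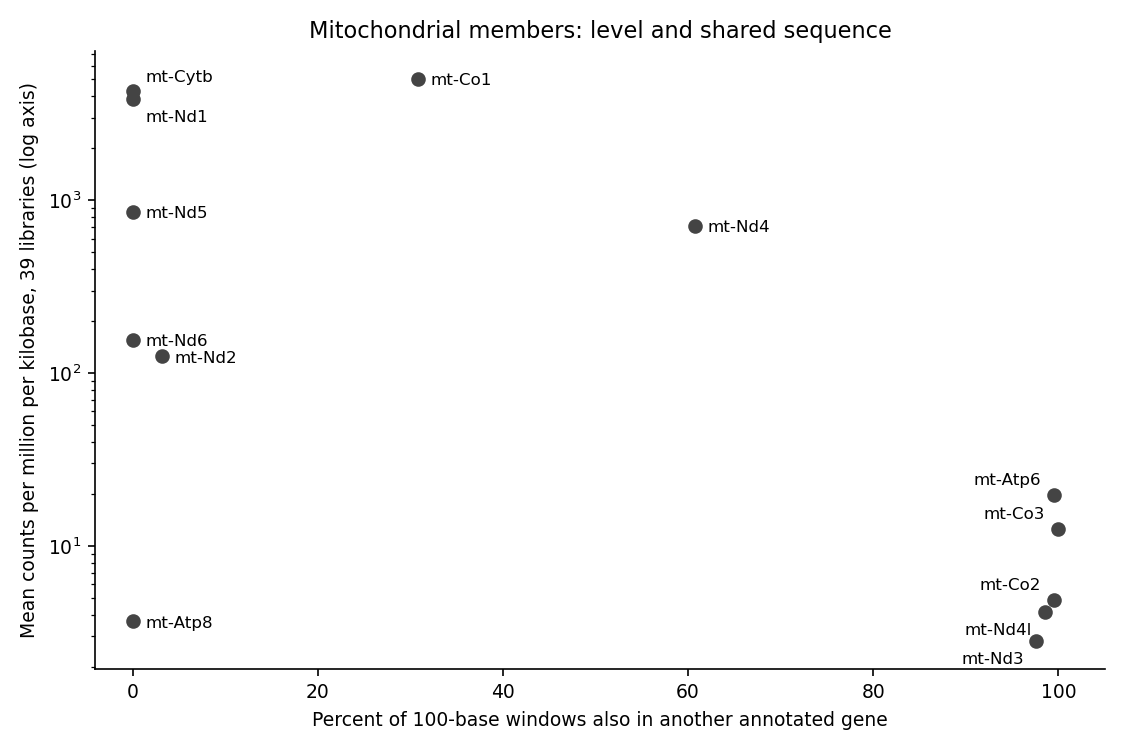
Level of each of the 13 mitochondrially encoded genes (mean CPM per kilobase over 39 libraries, log axis) against the percent of its 100-base windows that also occur in another annotated gene. The 5 genes with at least 97.6% shared windows lie between 2.83 and 19.7, while mt-Nd1, mt-Cytb and mt-Co1 lie between 3853 and 5033. mt-Atp8, with no window found in another annotated gene, is also low, and copies outside annotated genes were not searched.

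Summed over all 93 nuclear members, the share of library counts was lower at each later stage group than at E10.5 in both populations. In BAM it was 0.912%, 0.949%, 0.993% and 1.05% at E10.5, 0.801%, 0.839% and 0.833% at E11.5 and 0.801%, 0.839% and 0.796% at E12.5. It was then 0.757%, 0.762% and 0.717% at E14.5, 0.628%, 0.673% and 0.674% at E16.5, and 0.604%, 0.596%, 0.623% and 0.647% at E18.5. In BAM no library at E18.5 overlapped any at E10.5, E11.5, E12.5 or E14.5. In microglia the nuclear share was 0.958%, 0.951%, 1.06% and 0.994% at E10.5, 0.759%, 0.839% and 0.679% at E11.5 and 0.717%, 0.745% and 0.772% at E12.5. It was then 0.686% and 0.730% at E14.5, 0.483%, 0.533% and 0.563% at E16.5 and 0.556%, 0.531%, 0.569% and 0.556% at E18.5. At E16.5 every BAM library lay above every microglial one. The R10 library at E18.5, replicate 1, lay among the R8 libraries in both populations. In sorted bulk samples, fewer cells of a type and less RNA per cell cannot be told apart.

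The 13 mitochondrial genes did not follow that course. Their share of library counts in BAM was 1.25% to 1.97% at E10.5, 1.71% to 2.16% at E11.5, 1.74% to 3.03% at E12.5, 1.79% to 2.43% at E14.5, 1.42% to 1.83% at E16.5 and 1.67% to 1.83% at E18.5. In microglia it was 1.53% to 1.71% at E10.5, 1.096% to 1.91% at E11.5, 1.92% to 3.44% at E12.5, 1.96% to 2.08% at E14.5, 1.88% to 2.43% at E16.5 and 1.62% to 2.48% at E18.5. The spread within a group was widest at E12.5 in both populations, and the populations overlapped at every stage except E16.5, where all microglial libraries lay above all BAM libraries. The ratio of the mitochondrial to the nuclear sum was 2.86, 3.03, 2.93 and 2.58 in BAM at E18.5, against 1.38, 1.45, 1.91 and 1.88 in BAM at E10.5. In microglia the ratio was 3.09, 4.67, 3.48 and 2.91 at E18.5, against 1.62, 1.61, 1.498 and 1.72 at E10.5. No E18.5 library overlapped an E10.5 library in either population, the R10 libraries of E18.5 (2.86 in BAM and 3.09 in microglia) included. The 2 mitochondrial ribosomal RNA genes, which are not members, held 0.491% to 0.659% of counts in BAM at E18.5, against 0.242% to 0.379% in BAM at E10.5. In microglia they held 0.396% to 0.628% at E18.5, against 0.289% to 0.324% at E10.5.

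**Figure D2:**
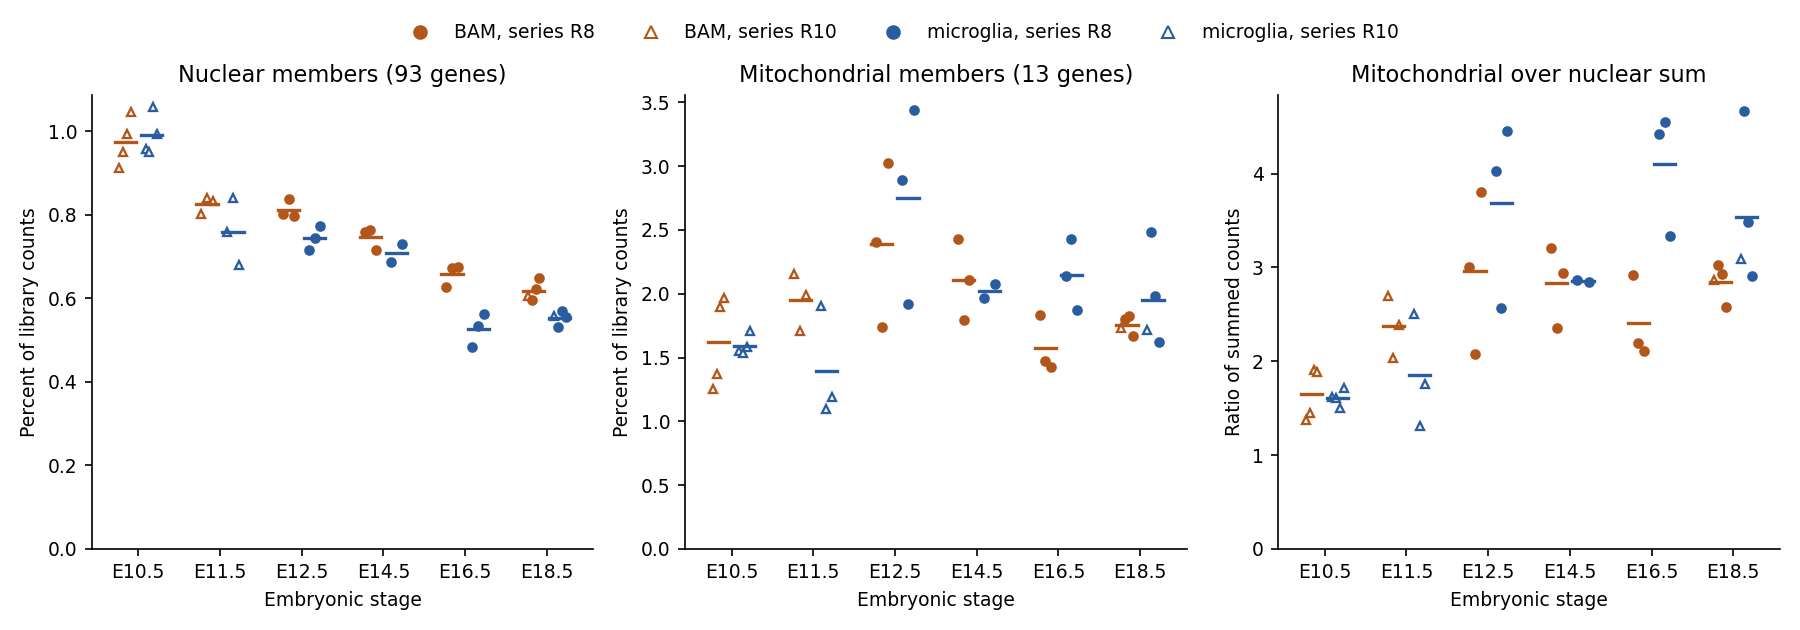
Share of library counts (percent) held by the 93 nuclear and the 13 mitochondrial members and the ratio of the 2 sums, by stage, for each BAM and microglial library, with bars at group means and open triangles for series R10. The nuclear share lies between 0.912% and 1.06% at E10.5 and between 0.531% and 0.647% at E18.5, and the ratio is higher at E18.5 than at E10.5 in both populations.

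Nuclear members of every complex fell with stage. Tests used edgeR's quasi-likelihood fit over 22061 genes, of which 103 were members (90 nuclear and 13 mitochondrial, with Ndufb4c, Cox6c2 and Ndufa11b too low), and a gene was called at a Benjamini-Hochberg adjusted p under 0.05. In BAM at E18.5 against E10.5, 47 of 103 members fell and 5 rose, where 14.8% of all genes fell and 22.8% rose. All 47 that fell were nuclear, and the nuclear median change was -0.55 on the log2 scale, against 0.29 for all genes tested. In microglia, 55 members fell and 5 rose, where 14.4% of all genes fell and 20.9% rose. Again all 55 were nuclear, with a nuclear median of -0.66 against 0.29 for all genes. Of the nuclear members, 42 fell in both populations, which is 42 of 47 in BAM and 42 of 55 in microglia, and 30 of 90 fell in neither. The share of all genes that fell in both is not given here, so this overlap is not read as particular to the members.

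By complex, in BAM 16 of 36 complex I subunits, 3 of 4 of complex II, 7 of 8 of complex III, 9 of 17 of complex IV, 7 of 17 of complex V and 5 of 8 assembly factors fell. In microglia 20 of 36 complex I subunits, 2 of 4 of complex II, 7 of 8 of complex III, 11 of 17 of complex IV, 11 of 17 of complex V and 4 of 8 assembly factors fell. The medians of the complexes lay between -0.48 and -0.76 in BAM and between -0.53 and -0.79 in microglia. The nuclear members that rose were Cox7a2l in both populations and Ndufa4l2 in BAM.

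**Figure D3:**
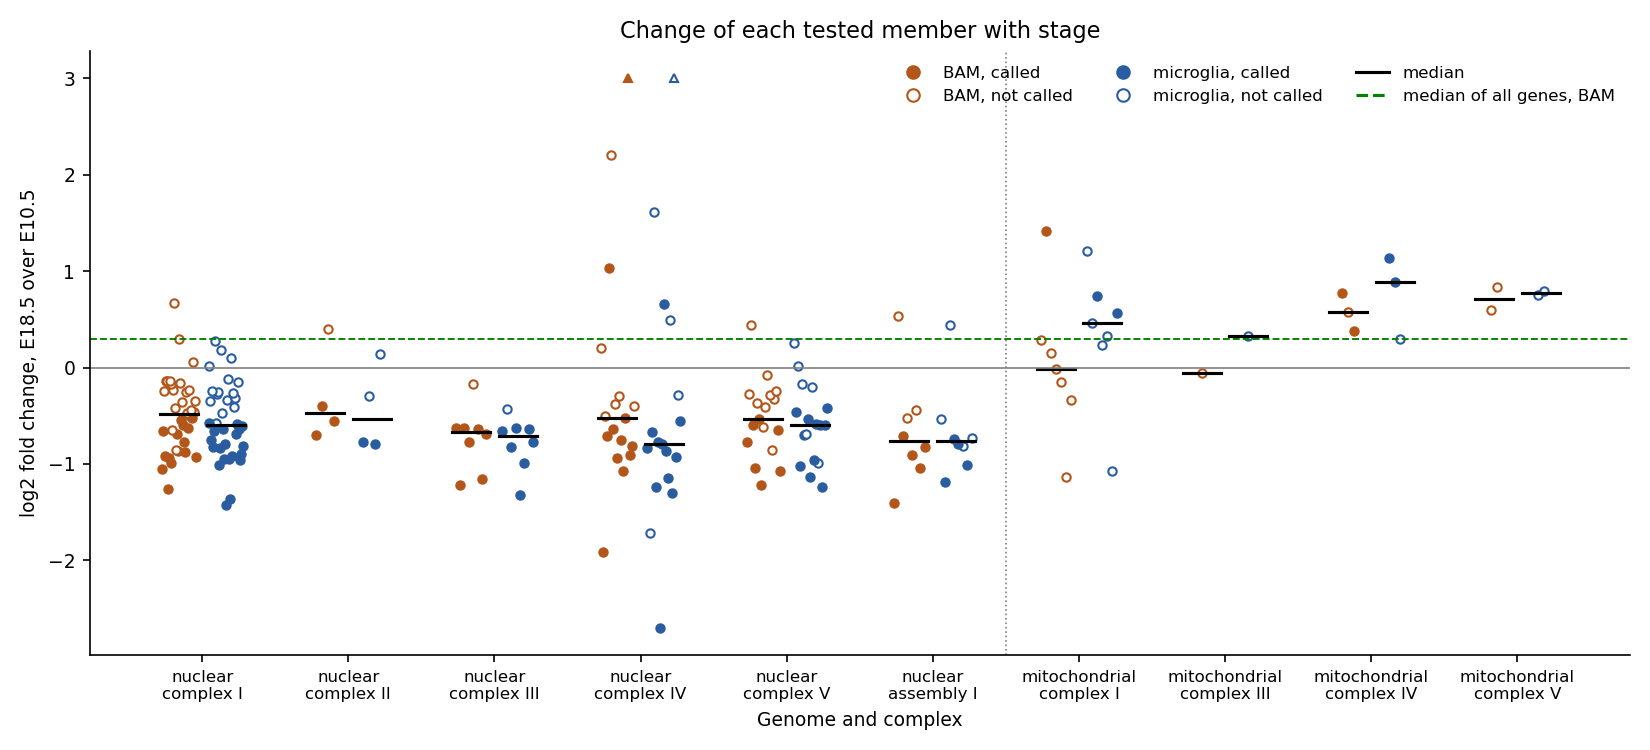
Fitted log2 fold change of each tested member at E18.5 over E10.5, by genome and complex, for BAM and microglia, with filled points for members called at an adjusted p under 0.05, the median of all genes in BAM as a dashed green line and values above 3 drawn as triangles at 3. Most nuclear points lie below 0 in every complex, while the mitochondrial points lie on both sides of 0.

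In complex V, Atp5b had 1159, 922, 1018 and 1160 CPM in BAM at E18.5, against 2238, 2278, 2050 and 2016 in BAM at E10.5. In microglia it had 1110, 938, 911 and 1058 CPM at E18.5, against 2317, 2202, 2432 and 2247 at E10.5. The stages did not overlap in either population, and the R10 libraries of E18.5 (1159 in BAM and 1110 in microglia) also lay below every E10.5 library. Atp5b fell by 1.04 ± 0.11 (log2 ± SE) in BAM (adjusted p = 1.95e-09) and by 1.13 ± 0.11 in microglia (adjusted p = 3.31e-10) by edgeR's quasi-likelihood test. Its partner Atp5a1 fell by 1.08 ± 0.11 in BAM (adjusted p = 7.62e-10) and by 1.24 ± 0.11 in microglia (adjusted p = 3.73e-11).

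In complex I, Ndufs1 (chr1:63143596-63176833, minus strand) carries iron-sulphur clusters on the electron path from NADH. It had 118, 90.1, 87.0 and 103 CPM in BAM at E18.5, against 236, 194, 172 and 174 in BAM at E10.5. Microglia had 136, 96.4, 103 and 109 CPM at E18.5, against 229, 205, 195 and 197 at E10.5. Again no library of one stage overlapped the other. Ndufs1 fell by 0.99 ± 0.13 in BAM (adjusted p = 1.82e-07) and by 0.83 ± 0.13 in microglia (adjusted p = 4.42e-06).

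In complex III, Uqcrc1 (chr9:108936633-108949623, plus strand) had 405, 376, 432 and 428 CPM in BAM at E18.5, against 655, 646, 730 and 715 in BAM at E10.5. Microglia had 473, 377, 436 and 419 CPM at E18.5, against 747, 646, 728 and 691 at E10.5. It fell by 0.77 ± 0.12 in BAM (adjusted p = 1.91e-06) and by 0.66 ± 0.12 in microglia (adjusted p = 2.43e-05). In complex II, the flavoprotein Sdha, which holds the succinate site, fell by 0.70 ± 0.12 in BAM (adjusted p = 9.3e-06) and by 0.80 ± 0.12 in microglia (adjusted p = 1.26e-06). The other membrane anchor of complex II, Sdhc, was not called in either population, at 0.40 ± 0.20 in BAM (adjusted p = 0.12) and 0.14 ± 0.20 in microglia (adjusted p = 0.633).

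Stage and library series overlap here, since E10.5 is all R10. With the series as a covariate, 30 of the 49 nuclear calls in BAM (47 lower, 2 higher) and 29 of the 56 in microglia (55 lower, 1 higher) still passed. Within R10 alone, where each E18.5 group has 1 library that is assumed to vary like the others, 9 nuclear calls in BAM and 7 in microglia passed. All 49 and 56 kept their sign in both settings, and the R10-alone nuclear medians were -0.56 in BAM and -0.66 in microglia. Within R10 alone Atp5b still passed, at -0.92 in BAM (adjusted p = 0.00339) and -0.93 in microglia (adjusted p = 0.00336). Ndufs1 passed in BAM at -0.75 (adjusted p = 0.0342) and not in microglia at -0.48 (adjusted p = 0.182), and Uqcrc1 passed in BAM at -0.80 (adjusted p = 0.0162) and not in microglia at -0.45 (adjusted p = 0.175). Sdha passed in neither, at -0.49 in BAM (adjusted p = 0.101) and -0.47 in microglia (adjusted p = 0.132).

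**Figure D4:**
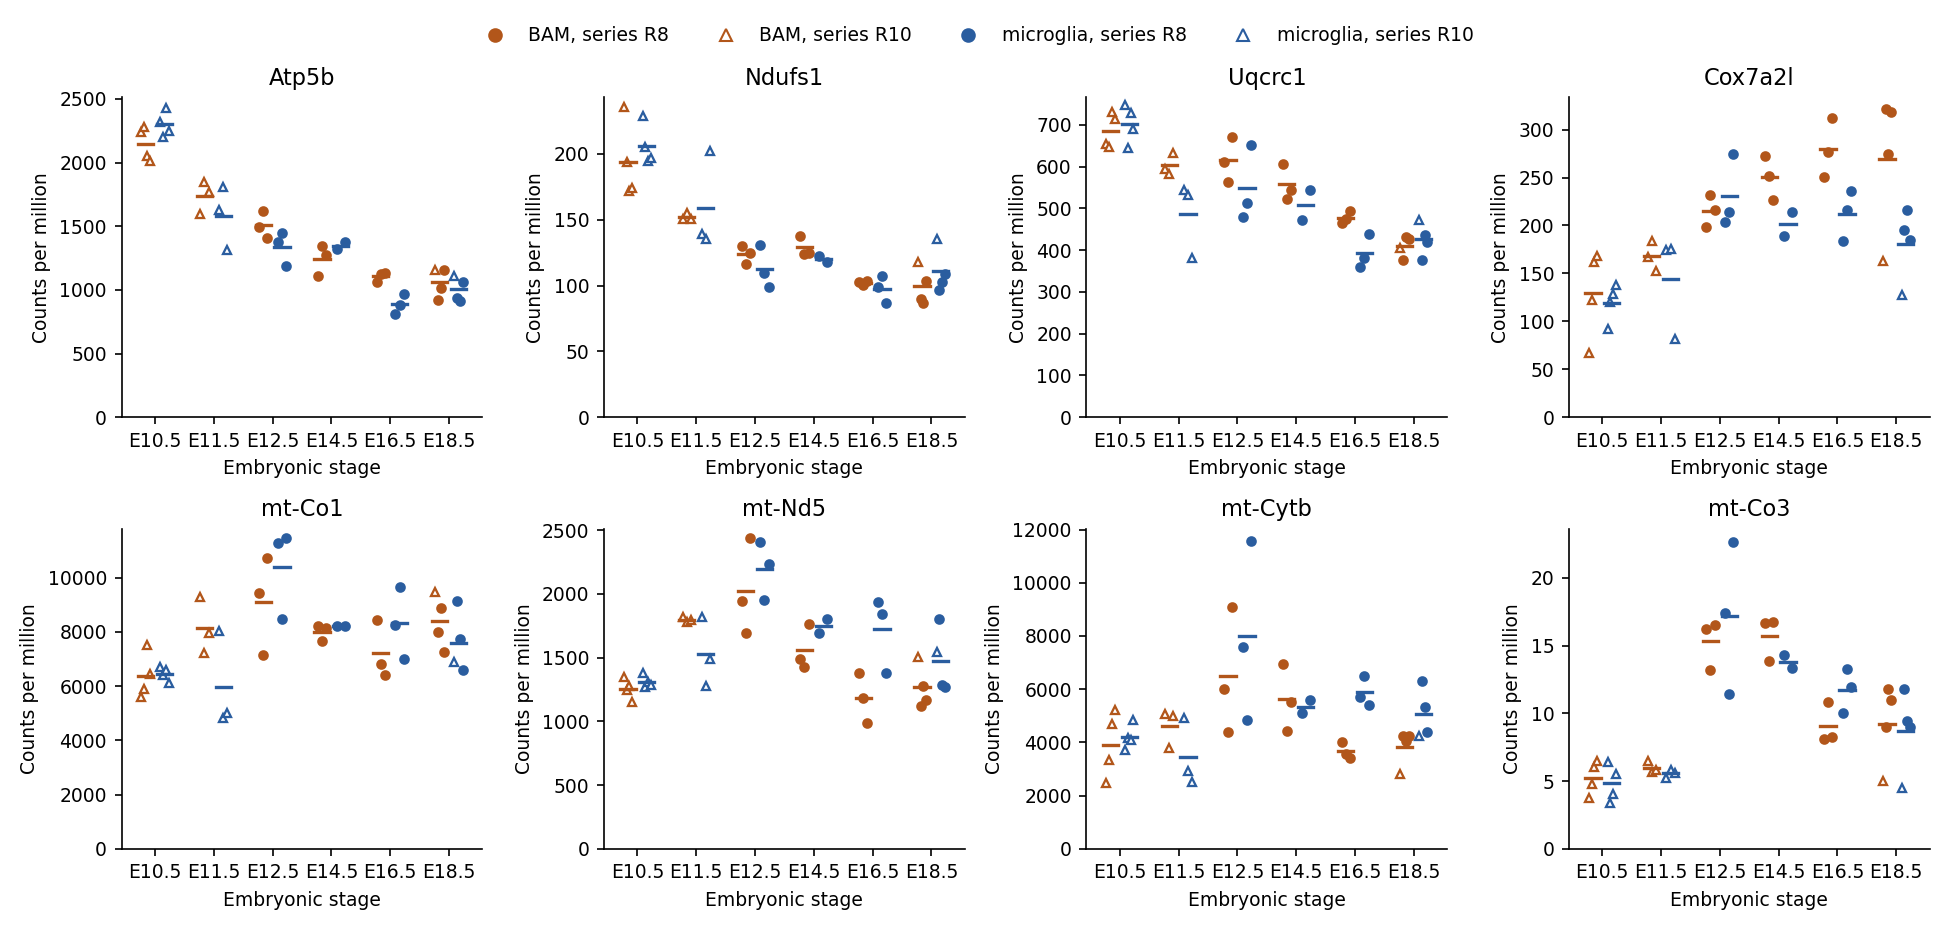
Level in CPM of 4 nuclear members (Atp5b, Ndufs1, Uqcrc1 and Cox7a2l) and 4 mitochondrial members (mt-Co1, mt-Nd5, mt-Cytb and mt-Co3) in each BAM and microglial library by stage, with bars at group means, circles for series R8 and open triangles for series R10. Atp5b lies between 2016 and 2432 at E10.5 and between 911 and 1160 at E18.5, while mt-Cytb and mt-Nd5 are widest or highest at E12.5.

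Of the mitochondrial genes, 3 of 13 were called higher in BAM at E18.5 against E10.5 (mt-Co1, mt-Co3 and mt-Nd4l), which is 23.1% where 22.8% of all genes were. In microglia 4 of 13 were called higher (mt-Nd2, mt-Nd4, mt-Co2 and mt-Co3), which is 30.8% where 20.9% of all genes were. Of these, mt-Co3, mt-Nd4l and mt-Co2 are among the 5 genes largely shared with nuclear copies, so their counts are not read as transcript changes. Most windows of mt-Nd4 also occur in another annotated gene, so its counts are not read that way either. The mitochondrial median change was 0.29 in BAM and 0.56 in microglia, against 0.29 for all genes in each. These medians, and the mitochondrial medians of other comparisons, cover all 13 genes, the 5 largely shared ones included. They are not read as transcript changes. mt-Co1, the catalytic subunit of complex IV that reduces oxygen, had 9460, 7994, 8884 and 7242 CPM in BAM at E18.5, against 5588, 5910, 7503 and 6453 in BAM at E10.5. The lowest E18.5 library lay within the E10.5 range, and the change was 0.38 ± 0.14 (adjusted p = 0.0351). In microglia mt-Co1 had 6887, 9155, 7747 and 6614 CPM at E18.5, against 6695, 6414, 6584 and 6134 at E10.5, and was not called at 0.29 ± 0.14 (adjusted p = 0.106).

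The other abundant mitochondrial genes were not called. mt-Cytb, the cytochrome b of complex III, had 2803, 4231, 4038 and 4250 CPM in BAM at E18.5, against 2457, 3325, 4684 and 5215 in BAM at E10.5, a change of -0.06 ± 0.23 (adjusted p = 0.892). In microglia it had 4231, 6322, 5324 and 4380 CPM at E18.5, against 3728, 4172, 4078 and 4841 at E10.5, a change of 0.32 ± 0.23 (adjusted p = 0.286). Both stages overlapped in both populations. mt-Nd1 changed by -0.34 ± 0.28 in BAM (adjusted p = 0.369) and by 0.46 ± 0.29 in microglia (adjusted p = 0.209), and mt-Nd5 by -0.01 ± 0.13 in BAM (adjusted p = 0.961) and 0.23 ± 0.13 in microglia (adjusted p = 0.169). mt-Nd6, which is read from the opposite strand of mitochondrial DNA to the other members, was at -0.15 ± 0.25 in BAM (adjusted p = 0.665) and 0.33 ± 0.25 in microglia (adjusted p = 0.306). With no strand setting given for the counting, reads of the other strand within mt-Nd6 cannot be told apart. This limit holds for all mt-Nd6 values here.

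All 3 mitochondrial calls in BAM and all 4 in microglia missed the threshold with the series as a covariate and within R10 alone, but their sizes moved differently. In BAM mt-Co1 was at 0.44 with the covariate (adjusted p = 0.0758) and 0.54 within R10 (adjusted p = 0.136), so its fitted change was not smaller than the 0.38 without these settings. In microglia mt-Nd4 was at 0.55 with the covariate (adjusted p = 0.0516) and 0.51 within R10 (adjusted p = 0.115), against 0.56 ± 0.16 without these settings (adjusted p = 0.00548). Likewise mt-Nd2 in microglia was at 0.60 (adjusted p = 0.171) and 0.61 (adjusted p = 0.342), against 0.74 ± 0.24 (adjusted p = 0.0165). The called genes with nearly all windows shared moved more. In BAM mt-Co3 turned to -0.08 with the covariate and -0.10 within R10, against 0.78 ± 0.27 without these settings (adjusted p = 0.0215), and mt-Nd4l was at 0.49 and 0.81 against 1.42 ± 0.54. In microglia mt-Co3 was at 0.031 and 0.022 against 0.89 ± 0.27, and mt-Co2 at 0.26 and 0.42 against 1.14 ± 0.39. At E18.5 mt-Co3 had 8.96 to 11.8 CPM in the 6 R8 libraries of both populations and 4.504 to 5.00 in the 2 R10 libraries. The R8 and R10 libraries were likewise apart for mt-Co2 (2.66 to 4.89 against 1.70 to 1.96 CPM) and mt-Atp6 (10.4 to 21.2 against 5.27 to 6.03 CPM). So were they for mt-Nd4l (1.14 to 3.09 against 0.552 to 0.804 CPM) and mt-Atp8 (0.358 to 2.06 against 0 to 0.34 CPM). For mt-Nd3 they were apart the other way, at 0.154 to 0.748 CPM in R8 against 1.36 to 1.61 in R10. The annotated copy of mt-Co3 on chromosome 1, Gm28437, moved alike, with a median of 12.4 CPM in BAM at E18.5 against 7.01 at E10.5. No mitochondrial member was called in BAM without BAM E10.5 replicate 1 or without BAM E18.5 replicate 3, or in microglia without microglia E18.5 replicate 2. That last library had 1454 CPM of mt-Nd4, against 854 to 989 in the other E18.5 microglial libraries.

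Cox7a2l (chr17:83501919-83514333, minus strand) is a Cox7a2-like gene counted here in complex IV. It had 163, 321, 275 and 318 CPM in BAM at E18.5, against 67.0, 123, 162 and 168 in BAM at E10.5. The R8 libraries of E18.5 lay above all E10.5 libraries, and the R10 library lay within the E10.5 range. Microglia had 128, 195, 216 and 185 CPM at E18.5, against 92.3, 120, 128 and 138 at E10.5. Cox7a2l rose by 1.03 ± 0.23 in BAM (adjusted p = 0.000513) and 0.65 ± 0.23 in microglia (adjusted p = 0.0245). With the series as a covariate it was 0.45 in BAM (adjusted p = 0.241) and 0.10 in microglia (adjusted p = 0.863). Within R10 alone it was 0.29 in BAM (adjusted p = 0.717) and 0.21 in microglia (adjusted p = 0.818), and the microglial call was also lost without microglia E10.5 replicate 1 or 2 or E18.5 replicate 2 or 3. Its related subunit Cox7a2 had 23.4, 13.8, 17.8 and 11.9 CPM in BAM at E18.5, against 26.8, 26.6, 24.3 and 29.5 in BAM at E10.5. Cox7a2 was called lower in BAM, a call that stayed in 11 of the alternative settings and was weaker in 5. In microglia Cox7a2 fell by 1.30 ± 0.24 (adjusted p = 5.62e-05). The share of Cox7a2l in the pair, per kilobase, had a median of 93.9% in BAM at E18.5 against 80.8% at E10.5, and of 94.6% in microglia at E18.5 against 79.2% at E10.5. The R10 libraries had the lowest shares at E18.5, at 85.1% in BAM and 89.7% in microglia. The highest shares at E10.5 were 84.6% in BAM and 86.3% in microglia. The share of the muscle form Cox7a1 beside Cox7a2 had a median of 2.16% in BAM at E18.5 against 2.25% at E10.5, and of 2.65% in microglia at E18.5 against 2.52% at E10.5. Shares were not tested.

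Ndufa4l2 (chr10:127514967-127517154, plus strand), a paralogue of the complex IV subunit Ndufa4 known as a hypoxia-responsive gene, was close to absent early. It had 0.982, 2.50, 3.23 and 3.10 CPM in BAM at E18.5, against 0, 0, 0.0778 and 0.0853 in BAM at E10.5. All 4 E18.5 libraries lay above all E10.5 libraries, and the fitted change was 5.75 ± 1.38 (adjusted p = 0.00125), a value whose size rests on levels near 0. It was 3.70 with the series as a covariate (adjusted p = 0.0477) and 4.44 within R10 alone (adjusted p = 0.302). Microglia had 0, 0.748, 1.20 and 0.307 CPM at E18.5, against 0.512, 0, 0 and 0.238 at E10.5, and was not called at 1.62 ± 1.16 (adjusted p = 0.292). Ndufa4 itself fell by 0.82 ± 0.19 in BAM (adjusted p = 0.000596) and by 1.14 ± 0.19 in microglia (adjusted p = 8.69e-06).

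Cox4i2 (chr2:152754173-152765037, plus strand), the form of subunit 4 linked to low oxygen and to lung, moved the other way from Ndufa4l2. It had 0, 0.380, 0.884 and 1.00 CPM in BAM at E18.5, against 1.02, 2.93, 1.63 and 2.77 in BAM at E10.5. In microglia it had 0.170, 0.281, 0.760 and 0.563 CPM at E18.5, against 3.33, 3.77, 2.85 and 2.22 at E10.5. The stages did not overlap in either population. The change was -1.91 ± 0.73 in BAM (adjusted p = 0.0373), lost without any of 4 libraries, BAM E10.5 replicates 2 and 4 and BAM E18.5 replicates 1 and 2. In microglia it was -2.70 ± 0.76 (adjusted p = 0.00506). Per kilobase it made up a median of 0.881% of the Cox4i1 and Cox4i2 total in BAM at E18.5 against 2.08% at E10.5, and 0.789% in microglia at E18.5 against 4.16% at E10.5. Cox4i1 itself was not called, at -0.37 ± 0.16 in BAM (adjusted p = 0.0566) and -0.29 ± 0.16 in microglia (adjusted p = 0.154).

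The promoters of nuclear members were searched for the letters CGCATGCG, the core of the motif of NRF1, a regulator of nuclear genes for mitochondrial proteins. The search covered 250 bases before each RefSeq start of GRCm38.p6, and these letters read the same on both strands. They occurred in 8 of 77 promoters of 72 matched members (10.4%) and in 509 of 32851 promoters of all genes (1.55%). Among promoters of the members that fell in both populations, 4 of 33 held them (12.1%), close to the 10.4% of all member promoters. The promoters of all genes were not matched for base composition. The GABP letters CCGGAAGT, searched on both strands, occurred in 3.9% of member promoters and 2.88% of all, and the YY1 letters AAGATGGCG in 1.3% and 0.606%. Such a match is a description of the letters and not a binding site. No link between the letters and the fall was tested.

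Of the 8 member promoters with the NRF1 letters, 3 are printed on the gene's strand, 250 bases each, with these letters in capitals. They were picked because their genes fell in both populations and act at different steps. The letters also occurred before Atp5j, which fell in both populations. They occurred too before Atp5g2, Atp5k, Atp5l and Ndufa8, which were not called lower in both. Cox6a1 (chr5:115348959-115349208, minus strand) encodes a subunit of complex IV, Ndufa11 (chr17:56717512-56717761, plus strand) an accessory subunit of complex I, and Ndufaf4 (chr4:24897833-24898082, plus strand) a complex I assembly factor.
Cox6a1: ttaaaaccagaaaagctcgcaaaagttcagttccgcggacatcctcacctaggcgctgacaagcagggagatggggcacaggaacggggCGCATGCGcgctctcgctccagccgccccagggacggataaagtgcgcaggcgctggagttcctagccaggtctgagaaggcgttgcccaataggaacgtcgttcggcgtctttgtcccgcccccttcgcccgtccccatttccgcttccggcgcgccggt
Ndufa11: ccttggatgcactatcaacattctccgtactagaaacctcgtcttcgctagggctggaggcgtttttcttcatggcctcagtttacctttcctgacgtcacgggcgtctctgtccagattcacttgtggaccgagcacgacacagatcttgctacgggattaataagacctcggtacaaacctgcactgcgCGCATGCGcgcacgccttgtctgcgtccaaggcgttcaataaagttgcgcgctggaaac
Ndufaf4: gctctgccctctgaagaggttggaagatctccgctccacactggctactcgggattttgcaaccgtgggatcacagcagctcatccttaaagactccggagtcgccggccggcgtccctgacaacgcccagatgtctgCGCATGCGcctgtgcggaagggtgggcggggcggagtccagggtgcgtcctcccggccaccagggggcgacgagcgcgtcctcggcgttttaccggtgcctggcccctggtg
Cox6a1 fell by 0.64 ± 0.18 in BAM (adjusted p = 0.00453) and by 0.67 ± 0.18 in microglia (adjusted p = 0.00336). Ndufa11 fell by 0.94 ± 0.20 in BAM (adjusted p = 0.000266) and by 0.69 ± 0.20 in microglia (adjusted p = 0.0065). Ndufaf4 fell by 0.91 ± 0.20 in BAM (adjusted p = 0.000334) and by 0.79 ± 0.19 in microglia (adjusted p = 0.00153).

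Over shorter intervals fewer members changed. Between E10.5 and E11.5, where all libraries are R10, 4 of 103 members changed in microglia, all lower at E11.5, where 8.26% of all genes were called. Among them were Atp5b at -0.51 ± 0.12 (adjusted p = 0.00435), Uqcrc1 and the flavin-binding complex I subunit Ndufv1. All 4 calls were lost without microglia E11.5 replicate 3, which left 2 other members called, and 9 were called without replicate 2 of that group. In BAM, 2 of 103 members were called at E11.5, where 4.42% of all genes were. Atp5g1, a subunit of the rotating ring of ATP synthase, was at -0.74 ± 0.18 (adjusted p = 0.00924) and mt-Nd5 at 0.54 ± 0.14 (adjusted p = 0.0175). Both calls were lost without BAM E11.5 replicate 1, and the count was 4 without BAM E10.5 replicate 1 and 1 without BAM E10.5 replicate 4 or BAM E11.5 replicate 2. DESeq2 called 10 members in BAM and 11 in microglia over this interval, and its share of all genes is not given here.

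From E12.5, all R8, to E18.5, 15 of 103 members fell in BAM, where 5.32% of all genes fell. The 13 nuclear ones included Uqcrc1 at -0.54 ± 0.12 (adjusted p = 0.00295) and Atp5a1 at -0.48, and the 2 mitochondrial ones were mt-Nd5 at -0.63 ± 0.14 (adjusted p = 0.00189) and mt-Nd6 at -0.95 ± 0.26 (adjusted p = 0.014). mt-Nd5 had 1507, 1121, 1275 and 1165 CPM in BAM at E18.5, against 1941, 1694 and 2438 in BAM at E12.5, with no overlap. The mt-Nd6 call was lost without BAM E12.5 replicate 3, and the count of members was 9 without that library or BAM E12.5 replicate 2. In microglia 1 of 103 members, Atp5j, fell at E18.5 against E12.5, at -0.55 ± 0.15 (adjusted p = 0.021), where 2.74% of all genes fell. That count was 0 without microglia E12.5 replicate 3 or microglia E18.5 replicate 4, and 2 to 6 without any other single library. Within R8 alone it was 9, with the series as a covariate 5, and by DESeq2 17. No share of all genes is given for these settings. The log2 changes of all 13 mitochondrial members were negative there, with a median of -0.42. The test of the difference between the populations over this interval called 0 of 103 members by edgeR, where 2.19% of all genes were called. At an unadjusted p under 0.05 there were 5, and DESeq2 called 1.

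Between the populations fewer members differed than between stages, and complex II was among them. Averaged over the 6 stages, 18 of 103 members were called, where 28.2% of all genes were, 14 of them higher in BAM than in microglia and 4 lower. All 18 were nuclear. The nuclear median was 0.12 and the mitochondrial median -0.03, against -0.02 for all genes. Complex II had 3 of its 4 subunits higher in BAM, complex I 6 of 36, complex III 1 of 8 and complex IV 1 of 17 with 1 lower. Complex V had 3 of 17 higher, Atp5s among them, and 3 of 8 assembly factors were lower.

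Sdhc (chr1:171127165-171150603, minus strand), one of the anchors that bind ubiquinone in the membrane, had 45.4, 75.4, 111 and 95.7 CPM in BAM and 44.7, 64.3, 79.1 and 81.0 in microglia at E10.5. At E12.5 it had 143, 146 and 122 CPM in BAM and 80.4, 80.04 and 71.1 in microglia. At E16.5 it had 129, 122 and 123 CPM in BAM and 58.5, 62.5 and 75.1 in microglia, and at E18.5 85.3, 118, 120 and 113 in BAM and 63.5, 67.6, 79.6 and 74.5 in microglia. The populations overlapped at E10.5 and did not overlap at the other 3 of these stages. Sdhc was higher in BAM by 0.62 ± 0.09 in the mean over stages (adjusted p = 1.93e-06), by 0.84 ± 0.23 at E12.5 (adjusted p = 0.0172) and by 0.97 ± 0.24 at E16.5 (adjusted p = 0.00309). The E12.5 call was lost without BAM E12.5 replicate 2 or microglia E12.5 replicate 3. Sdhd was higher by 0.43 ± 0.07 in the mean (adjusted p = 1.88e-05) and Sdha by 0.23 ± 0.05 (adjusted p = 0.000971), while the iron-sulphur subunit Sdhb was not called at 0.18 ± 0.10 (adjusted p = 0.179).

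The fitted differences of Sdha, Sdhc and Sdhd were largest at E16.5. Sdha there had 521, 469 and 497 CPM in BAM and 315, 336 and 366 in microglia, and Sdhd had 240, 245 and 239 in BAM and 120, 149 and 165 in microglia. Neither gene overlapped between the populations. Sdha was higher by 0.60 ± 0.13 (adjusted p = 0.00142) and Sdhd by 0.78 ± 0.19 (adjusted p = 0.00258), and these calls and that of Sdhc passed without any single library. At E18.5 Sdha had 542, 462, 427 and 437 CPM in BAM and 519, 401, 400 and 396 in microglia, which overlapped, at 0.02 ± 0.12 (adjusted p = 0.958). Summed over its 4 genes, complex II had 1024, 984 and 1001 CPM in BAM at E16.5 and 578, 668 and 726 in microglia. At E10.5 it had 1193 to 1414 CPM in BAM and 1211 to 1315 in microglia, a range within that of BAM.

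**Figure D5:**
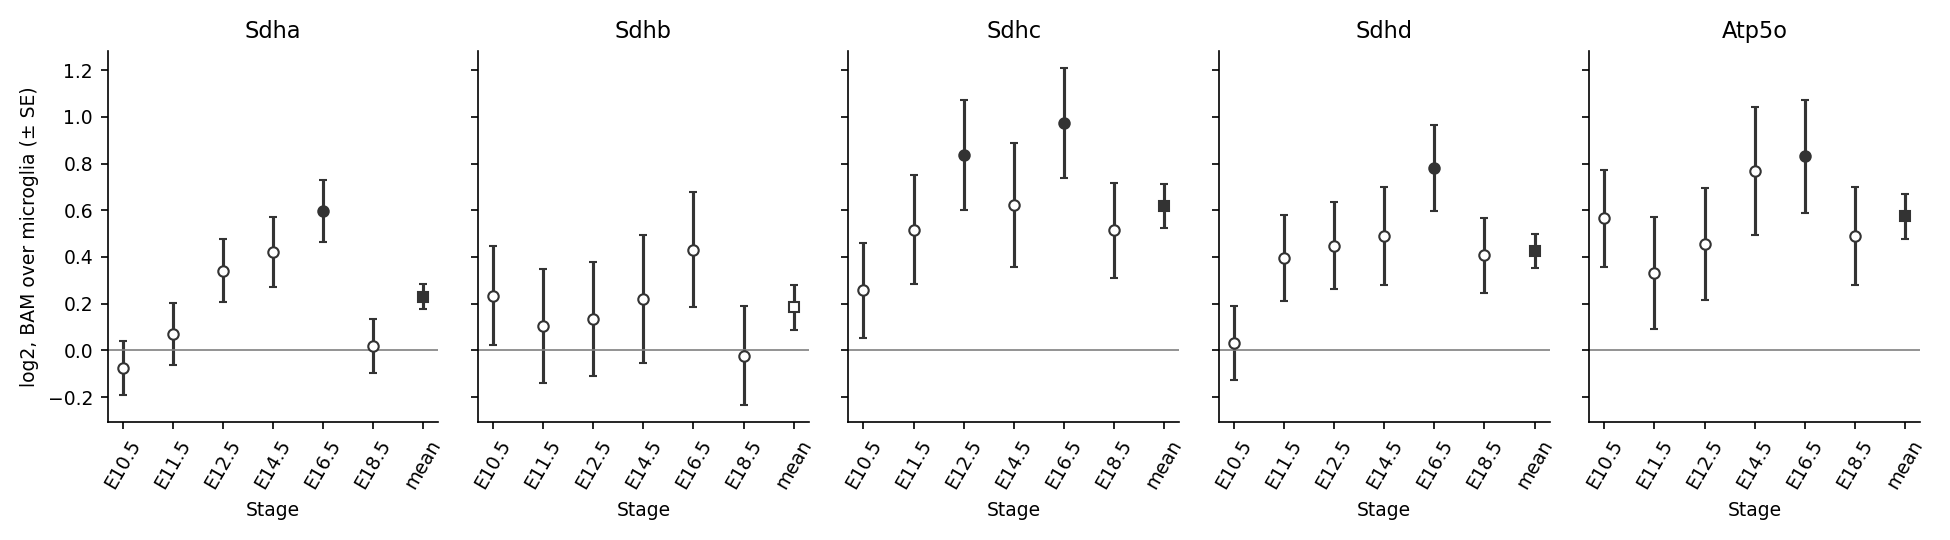
Fitted log2 difference, BAM over microglia, with its standard error, at each of 6 stages and as the mean over stages (square) for the 4 complex II subunits Sdha, Sdhb, Sdhc and Sdhd and for Atp5o of complex V. The difference of Sdha is -0.08 at E10.5, 0.60 at E16.5 and 0.02 at E18.5, and that of Sdhc is above 0 at every stage.

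At E16.5, 15 of 103 members were called, where 13.8% of all genes were: 12 nuclear members higher in BAM, and Ndufab1 (the acyl carrier subunit), mt-Nd4 and mt-Nd5 lower. Beside the complex II genes, the higher ones included Atp5a1 at 0.50 and Atp5b at 0.37, Cox6a1 at 0.76 ± 0.21 (adjusted p = 0.00985) and Atp5o, the stalk subunit of ATP synthase also known as OSCP, at 0.83 ± 0.24 (adjusted p = 0.0157). Atp5o had 56.1, 71.3 and 76.5 CPM in BAM and 30.9, 42.6 and 44.8 in microglia, with no overlap, and reads in the 27.9% of its windows shared with an antisense gene cannot be told apart from that gene's. The difference, BAM over microglia, was -0.66 ± 0.18 for mt-Nd4 (adjusted p = 0.0115) and -0.49 ± 0.15 for mt-Nd5 (adjusted p = 0.022). Most windows of mt-Nd4 also occur in another annotated gene, so its difference is not read as a transcript change. The nuclear median was 0.27 and the mitochondrial median -0.50. The count was 5 without microglia E16.5 replicate 1, and 7 without BAM E16.5 replicate 2 or replicate 3. The calls of Atp5b, Cox6a1, Atp5o, mt-Nd4 and mt-Nd5 were each lost in at least 1 of these settings. Whether the differences at E16.5 differ from those at other stages was not tested.

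At E10.5, E11.5, E12.5, E14.5 and E18.5 between 0 and 2 members were called by edgeR. At E10.5 there were 0 of 103 by edgeR, with 5 at an unadjusted p under 0.05 and 1 by DESeq2, where 4.48% of all genes were called. At E11.5 there was 1 of 103, where 6.66% of all genes were called: Atp5s, a coupling factor gene, at 1.04 ± 0.28 (adjusted p = 0.0186). At E12.5 Sdhc was the 1 call of 103, where 8.54% of all genes were called. At E14.5 the complex I subunit Ndufv3 was the 1 call, at 0.67 ± 0.20 (adjusted p = 0.0299), where 7.18% of all genes were called. At E18.5 there were 2 of 103, where 15.4% of all genes were called: Cox7a2 at 0.72 ± 0.24 (adjusted p = 0.037) and the ATP synthase membrane subunit Atp5j2 at 0.50 ± 0.17 (adjusted p = 0.0344). DESeq2 called 10 at E18.5, and its share of all genes is not given here. The calls at E11.5, E14.5 and E18.5 were each lost without at least 1 library, including microglia E11.5 replicate 1, microglia E14.5 replicate 1 and BAM E18.5 replicate 3. Without microglia E18.5 replicate 2 or BAM E18.5 replicate 3, no member was called at E18.5, and without BAM E18.5 replicate 2 or microglia E18.5 replicate 3 there were 4.

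Members that were lower in BAM over the mean of stages were Cox4i2 at -0.90 ± 0.34 (adjusted p = 0.0417) and the assembly factors Ndufaf3 at -0.36, Ndufaf7 at -0.35 and Ndufaf4 at -0.24. The Cox4i2 call was lost without many single libraries, with -0.66 without microglia E14.5 replicate 1. Ndufaf3 lost its call without microglia E12.5 replicate 3 or microglia E14.5 replicate 2. Higher in BAM beside complex II were Atp5o at 0.57 ± 0.10 (adjusted p = 1.12e-05), Atp5s at 0.40, Ndufs7 at 0.36, Ndufb10 at 0.34, Ndufa7 at 0.32, Uqcrb at 0.30, Ndufv3 at 0.29, Ndufb8 at 0.27, Cox6a1 at 0.23, Ndufc2 at 0.23 and Atp5a1 at 0.15. The Cox6a1 call was lost without microglia E11.5 replicate 1, BAM E11.5 replicate 3, microglia E16.5 replicate 1 or BAM E16.5 replicate 2.

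In the lists of other mitochondrial genes, counts at E18.5 against E10.5 are to be read against the same shares of all genes, 14.8% lower and 22.8% higher in BAM and 14.4% lower and 20.9% higher in microglia. Of 77 tested genes for mitochondrial ribosomal proteins, which translate the 13 mitochondrial messages, 56 fell in BAM and 52 in microglia at E18.5 against E10.5, with medians of -0.75 in BAM and -0.70 in microglia. Of 29 genes for mitochondrial DNA and RNA handling, 14 fell and 2 rose in BAM, and 12 fell and 1 rose in microglia. Tfam, which packages mitochondrial DNA and starts its transcription, averaged 23.3 ± 2.68 CPM in BAM at E18.5 and 38.3 ± 2.84 in BAM at E10.5 (SD, n = 4 each). In microglia it averaged 17.5 ± 2.12 CPM at E18.5 and 40.7 ± 4.07 at E10.5 (SD, n = 4 each). Tfam fell by 0.74 ± 0.16 in BAM (adjusted p = 0.000431) and by 1.15 ± 0.17 in microglia (adjusted p = 9.77e-07).

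Of 25 genes of the tricarboxylic acid cycle and pyruvate entry, 16 fell and 3 rose in BAM, and 19 fell and 3 rose in microglia. Citrate synthase (Cs) fell by 1.40 in BAM and by 1.07 in microglia, while Pdk2, a kinase that switches off pyruvate dehydrogenase, rose by 2.40 in BAM and 2.50 in microglia. Of 14 carriers around the chain, 9 fell in each population, among them cytochrome c (Cycs) by 1.72 in BAM and 1.17 in microglia. Ucp2, an inner membrane carrier, rose by 0.88 ± 0.22 in BAM (adjusted p = 0.00158) and 0.74 ± 0.22 in microglia (adjusted p = 0.00718). Of 35 assembly factors outside the symbol pattern, 17 fell in BAM and 14 in microglia. Of 12 regulators of nuclear subunit genes, 7 fell and 1 rose in BAM, and 3 fell in microglia. Nrf1 fell by 0.66 in BAM (adjusted p = 0.000785) and by 0.44 in microglia (adjusted p = 0.0251), and its part in the members' changes was not tested.

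Markers of other cell types moved with stage in these libraries. The summed erythroid markers had 118 to 232 CPM in BAM at E18.5 against 36.6 to 69.9 at E10.5, and 177 to 275 in microglia at E18.5 against 41.1 to 114 at E10.5, with 5 of 8 genes higher and 2 lower in both. Mesenchymal and mural markers had 127 to 484 in BAM at E18.5 against 3.24 to 18.98 at E10.5, and 75.6 to 178 in microglia at E18.5 against 1.28 to 10.95 at E10.5, with 6 of 6 genes higher in both. Neural markers had 154 to 391 in BAM at E18.5 against 52.6 to 77.4 at E10.5, and 139 to 257 in microglia at E18.5 against 91.6 to 117 at E10.5, with 5 of 7 higher in both. Endothelial markers had 68.7 to 301 in BAM at E18.5 against 41.3 to 54.2 at E10.5, with 4 of 6 higher, and 99.8 to 175 in microglia at E18.5 against 75.7 to 101 at E10.5, with 3 of 6 higher. Choroid plexus markers had 2.81 to 61.4 in BAM at E18.5 against 0 to 0.661 at E10.5, and 7.73 to 26.9 in microglia at E18.5 against 0 to 0.146 at E10.5, with 2 of 3 higher in both. Granulocyte and mast cell markers had 0.265 to 14.2 in BAM at E18.5 against 1.58 to 4.01 at E10.5, and 1.13 to 2.43 in microglia at E18.5 against 34.1 to 89.5 at E10.5. Of these markers, Hbb-bh1, Elane and Mcpt4 were at 0 in all 4 libraries of microglia at E18.5, and none was in BAM at E18.5. At E10.5 all 4 libraries were at 0 for Rgs5, Dcn, Kl, Cpa3, S100a8, Elane and Mcpt4 in BAM, and for Ttr, Kl, S100a9 and Mcpt4 in microglia. In the mean over stages, 6 of 8 erythroid markers were lower in BAM than in microglia. The part of these cells in the members' differences was not tested.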

How the data were processed

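RNA was measured in 39 libraries of 2 sorted populations at 6 stages (E10.5 to E18.5). The authors deposited whole-number counts per gene, made with STAR and featureCounts on GRCm38, per the submitters' processing notes; versions and the annotation release are not given in the sources used here. Of 53379 identifiers, 53274 had a symbol, and no count column was left unused. The value 2 occurred 49977 times and the value 1 21280 times, so a fragment may have been counted as 2 reads, and reads carry no molecular tags.

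Here CPM was computed on library totals. edgeR 4.0.16 (R 4.3.3, limma 3.58.1) filtered with filterByExpr to 22061 genes holding 99.973% of counts, scaled by TMM and fitted 12 group means by quasi-likelihood (27 residual degrees of freedom, and a common coefficient of variation of 55.08%), with Benjamini-Hochberg adjustment over all tested genes and calls under 0.05. The script was tested on simulated data. The 14 comparisons were BAM over microglia at each stage and in the mean, E18.5 over E10.5, E18.5 over E12.5 and E11.5 over E10.5 in each population, and the population difference of the E12.5 to E18.5 change. The members and lists were chosen with earlier results of these data known, and the alternatives tried were listed before these fits. Members named with values were all mitochondrial genes, core subunits, paralogue sets and, per comparison and complex, up to 2 called members with the largest change each way; others named were chosen after their values were seen. Shared sequence was sought as identical 100-base windows in annotated transcripts, and promoters came from RefSeq (GRCm38.p6). Spike-in controls were not used here. Values of 1 member that counts toward the totals are not reported here. Alternatives were RLE factors, no filter, DESeq2 1.42.0, totals without mitochondrial genes, compared groups alone, a 1.5-fold threshold, each library left out, library series, and a replicate block of adjacent library numbers.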

Additional observations from a re-analysis of the deposited data

Results flagged for a closer look

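In groups of 4 libraries, 5 of 192 sets of values held a library far from the other 3, where chance gives about 1 in 20. mt-Nd3 was highest in BAM E18.5 replicate 1 at 1.61 CPM, with the nearest library at 0.442. mt-Cytb was lowest in the same library at 2803 CPM, with the nearest at 4038. Ndufs7, an iron-sulphur subunit of complex I, was lowest in that library too, at 43.8 CPM with the nearest at 64.5. mt-Atp8 was highest in microglia E18.5 replicate 2 at 2.06 CPM, with the nearest at 0.633. Sdha was highest in microglia E18.5 replicate 1 at 519 CPM, with the nearest at 401. Both replicates 1 at E18.5 are the R10 libraries of that stage, and the part of the series in these values was not tested. Outside the members, Ndufb1-ps, left out for its name, held 4031 counts over the 39 libraries.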

How the results depend on the processing

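Counts are members called of 103, and a number alone in brackets is the count in the report. Shares of all genes were taken from the main edgeR fit only. Counts under the other settings therefore have no such share beside them. With a threshold of a 1.5-fold change, the E18.5 over E10.5 counts were 13 in BAM (52) and 14 in microglia (60), and those of BAM over microglia in the mean (18) and at E11.5, E12.5, E14.5, E16.5 and E18.5, and of both shorter stage comparisons in each population, were 0. Library series moved E18.5 over E10.5 in microglia to 37 with a covariate and 7 within R10, and in BAM to 9 within R10; mt-Co3 in BAM turned to -0.0804 and -0.104 there. The same settings gave 5 (covariate) and 9 (R8 alone) for microglia E18.5 over E12.5 (1), and 1 (R10 alone) for microglia E11.5 over E10.5 (4). DESeq2 called 1 at E10.5 (0), 2 at E14.5 (1), 10 at E18.5 (2), 17 for microglia E18.5 over E12.5, 10 for E11.5 over E10.5 in BAM and 11 in microglia, and 1 for the population difference of the stage change (0). Without a filter the counts were 0 at E11.5 (1), 0 at E14.5, 9 at E16.5 (15), 0 at E18.5, and in microglia 2 for E18.5 over E12.5 and 2 for E11.5 over E10.5. The compared groups alone gave 0 at E11.5, and 1 for BAM (2) and 0 for microglia in E11.5 over E10.5. RLE factors gave 4 at E18.5 and 5 for microglia E18.5 over E12.5, and totals without mitochondrial genes gave 6 there. The cause of these moves was not tested. Blocking on adjacent library numbers gave 28 in the mean, 7 at E11.5, 3 at E12.5, 0 at E14.5, 28 at E16.5 and 13 at E18.5; the numbers are no stated pairing, and 15 of 19 pairs had correlated deviations over 0.1 (-0.0255 to 0.392). Leaving out 1 library gave 14 to 27 in the mean, 0 to 2 at E10.5, 0 to 3 at E11.5, 0 to 1 at E12.5, 0 to 2 at E14.5, 5 to 11 at E16.5 and 0 to 4 at E18.5. For E18.5 over E10.5 it gave 41 to 53 in BAM and 52 to 62 in microglia, for E18.5 over E12.5 9 to 17 in BAM and 0 to 6 in microglia, for E11.5 over E10.5 0 to 4 in BAM and 2 to 9 in microglia, and 0 for the population difference. Without the overlapping gene pairs the mean mitochondrial share was 1.92% in microglia at E14.5 and 1.67% in BAM at E18.5, and the mean ratio in microglia at E14.5 was 2.71. Depth limits the members near 0 CPM, such as Ndufa4l2 and Cox4i2.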
